A study of Homo sapiens with 24 samples.

Results

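MYC and 8 genes of its MAX network were followed in 3 B-cell lymphoma cell lines, before and during treatment with artesunate. The members were every probe that the annotation of the array assigned to MYC, MAX, MXD1, MXD3, MXD4, MXI1, MNT, MLX or MGA, which gave 18 probes of the 47319 on the array, and each probe was described on its own. Of these, 15 probes, at least 1 for each of the 9 genes, were detected on at least 2 arrays and were tested among 25017 probes that met the same condition. Detected means a detection p under 0.05 against the negative control probes of the array. The probes not tested were ILMN_1793915 and ILMN_1663497 for MXI1 and ILMN_1792207 for MLX.

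Of the lines, BL-41 comes from Burkitt lymphoma, whereas SU-DHL-4 and Oci-Ly-2 come from diffuse large B-cell lymphoma (DLBCL) of the germinal center type. The MYC gene differs between them, per the study: BL-41 carries a translocation, Oci-Ly-2 a mutation and SU-DHL-4 no translocation. Each line had 2 arrays (Illumina HumanHT-12 v4) after 4 h with 5 μM artesunate, 2 after 12 h with 5 μM artesunate, 2 of control cells at 0 h and 2 of control cells at 12 h, 24 arrays in all. Artesunate is a derivative of artemisinin used against malaria. Per the study, replicate arrays were technical (2 a group), so that p-values cover array-to-array spread alone, with no separate cultures behind them. Burkitt lymphoma is represented by 1 line, and the labels describe the controls as not treated whereas the text of the study speaks of vehicle. There was no control at 4 h, so the 4 h arrays were compared with 0 h, and artesunate cannot be told apart from time in culture there. Each array reads RNA of a whole culture, in which fewer expressing cells and less RNA per cell cannot be told apart.

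MYC is a transcription factor that acts as a dimer with MAX and binds the DNA sequence CACGTG, the E-box, near genes of ribosome production, metabolism and the cell cycle. MXD1, MXD3, MXD4, MXI1, MNT and MGA compete for the same partner and mostly repress, whereas MLX pairs with the sugar-sensing factors MondoA and ChREBP and with some of the repressors. In Burkitt lymphoma, a translocation places MYC under the control of an immunoglobulin gene.

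Members of the network bind CACGTG, and some of their own promoters hold it. It was searched for in the 250 bases before the start of each gene in RefSeq (GRCh38.p14); the motif reads the same on both strands. Promoters of 8 of the 9 genes were matched, all but MYC, and 3 of the 8 genes held the motif, which was present in 6.34% of all 35116 promoters. The first is a share of genes and the other of promoters. MAX, MXI1 and MGA had more than 1 promoter each, so the shares are not alike. The windows below show it in capitals with up to 20 bases on each side, and a match is a description of the sequence only. They are MXD4 at chr4:2262322-2262359 (minus strand), with the motif starting at position -238 from the start of the gene, MNT at chr17:2401228-2401273 (minus strand), at -193, and MLX at chr17:42567030-42567075 (plus strand), at -50.
MXD4: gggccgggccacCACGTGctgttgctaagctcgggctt
MNT: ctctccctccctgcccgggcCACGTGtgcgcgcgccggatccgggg
MLX: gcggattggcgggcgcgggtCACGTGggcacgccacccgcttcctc
No motif was found in these windows for MAX, MXD1, MXD3, MXI1 and MGA.

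The arrays detected between 16156 and 18171 probes each, with median signals of 82.6 to 112 before normalization, and the 2 arrays of a group correlated at 0.986 to 0.993. Of 5 B-cell markers, 4 (MS4A1, CD79A, CD79B and CD22) were detected on all 8 arrays of each line, whereas 0 of 5 T-cell and 0 of 3 erythroid markers were. Of 4 monocyte markers, LYZ and CD68 were detected throughout in BL-41 and CD68 in each DLBCL line, and of 3 fibroblast markers, DCN was in SU-DHL-4. Of the germinal center markers, BL-41 had 2 of 4 (BCL6 and MME), SU-DHL-4 had 4 of 4 and Oci-Ly-2 had 3 of 4. All 3 plasma cell markers (SDC1, PRDM1 and IRF4) were detected throughout in BL-41, SDC1 in SU-DHL-4 and IRF4 in Oci-Ly-2. The part of these markers in the differences between lines was not tested.

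Values are given as log2 signals after background correction and quantile normalization. They compare arrays for 1 probe, not 1 probe with another. A probe was called where the log2 difference was beyond 0.5 in either direction with a limma adjusted p under 0.01 over all 25017 probes.

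At baseline, MYC was lower in BL-41 than in both DLBCL lines, and MXD4, a MAX-binding repressor associated with resting and differentiating cells, differed between all 3 lines. MNT, a repressor found in dividing as well as resting cells, was also lower in BL-41 than in both DLBCL lines. In the comparison of BL-41 with SU-DHL-4, 6 of 15 member probes were called, all of them lower in BL-41, against 19.4% of all probes in either direction and 9.73% lower. In BL-41 against Oci-Ly-2, 5 of 15 were called (19.3% of all probes), 4 lower (9.75% of all probes) and 1 higher (9.55%). In SU-DHL-4 against Oci-Ly-2, 2 of 15 were called (19.4% of all probes), both higher (9.61%). The 4 control arrays of BL-41 lay wholly above those of SU-DHL-4 for 2 members (15.0% of all probes) and wholly below for 6 (13.7%). Against Oci-Ly-2 they lay above for 1 (15.5%) and below for 5 (15.4%), and SU-DHL-4 lay above Oci-Ly-2 for 2 (13.9%) and below for 0 (15.1%). Over the 3 pairs of lines, 7 probes of 6 genes were called at least once, against 32.1% of all probes, and MXD4 alone was called in all 3 pairs, against 3.61% of all probes.

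The MYC probe ILMN_1680618 read 10.59, 10.65, 10.71 and 10.86 on the 4 control arrays of BL-41 (0 h and 12 h together). It read 11.36, 11.65, 11.66 and 11.69 on those of SU-DHL-4 and 11.60, 11.73, 11.76 and 11.89 on those of Oci-Ly-2. All 4 BL-41 arrays were below every array of both DLBCL lines, and the DLBCL lines overlapped. The difference was -0.89 (SE 0.13, limma adjusted p = 1.64e-05) between BL-41 and SU-DHL-4 and -1.04 (SE 0.13, adjusted p = 2.07e-06) between BL-41 and Oci-Ly-2. Between SU-DHL-4 and Oci-Ly-2 it was -0.16, with a 95% interval of -0.43 to 0.12.

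The second MYC probe, ILMN_2110908, showed the same order. Its control arrays read 8.60, 8.70, 8.73 and 8.95 in BL-41 cells, 9.70, 9.85, 9.93 and 10.07 in SU-DHL-4 cells, and 10.01, 10.04, 10.10 and 10.36 in Oci-Ly-2. BL-41 was again below both other lines on every array, by -1.14 (SE 0.15, limma adjusted p = 3.12e-06) against SU-DHL-4 and by -1.38 (SE 0.15, adjusted p = 2.39e-07) against Oci-Ly-2. SU-DHL-4 and Oci-Ly-2 differed by -0.24 (95% interval -0.55 to 0.07) and overlapped. Over all probes, 3.81% were called lower in BL-41 than in both DLBCL lines, and 3 of 15 member probes were, both of MYC and that of MNT. As a description, the 2 MYC probes correlated at 0.94 over the 12 group means, which share the line-to-line differences.

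MXD4 had the widest range among the members. ILMN_1756541 read 6.51, 6.65, 6.93 and 7.51 on the control arrays of BL-41, 8.71, 8.71, 9.12 and 9.35 on those of SU-DHL-4, and 4.72, 4.93, 5.27 and 5.33 on those of Oci-Ly-2, where 1 of the 4 arrays did not detect it. The lines did not overlap in any pair. SU-DHL-4 was 3.91 above Oci-Ly-2 (SE 0.17, limma adjusted p = 1.54e-13), a 15.0-fold difference that ranked 90 by size among the 25017 probes. BL-41 stood between them, at -2.07 (SE 0.17, adjusted p = 3.71e-09) against SU-DHL-4 and 1.83 (SE 0.17, adjusted p = 2.47e-08) against Oci-Ly-2. The sizes depended on the background correction: without it, the differences from Oci-Ly-2 were 2.39 for SU-DHL-4 and 0.84 for BL-41.

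MNT (ILMN_1792910) read 6.13, 6.13, 6.24 and 6.60 in BL-41 control arrays, 6.99, 7.30, 7.34 and 7.44 in those of SU-DHL-4 and 6.86, 7.07, 7.15 and 7.46 in those of Oci-Ly-2. BL-41 lay below every array of both other lines. The differences were -0.99 (SE 0.14, limma adjusted p = 1.05e-05) against SU-DHL-4 and -0.86 (SE 0.14, adjusted p = 5.68e-05) against Oci-Ly-2, and the call against Oci-Ly-2 was lost without background correction (-0.50). SU-DHL-4 and Oci-Ly-2 differed by 0.13, with a 95% interval of -0.16 to 0.43.

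The remaining baseline calls, on probes of MXD1, MAX and MXI1, were lost without background correction. MXD1 (ILMN_2214678), a MAX-binding repressor induced when cells differentiate, read 4.76, 4.79, 4.81 and 5.21 in BL-41 control arrays, of which 1 detected it. It read 5.30, 5.55, 5.69 and 5.73 in SU-DHL-4, all 4 detected, and 4.74, 4.78, 4.88 and 5.22 in Oci-Ly-2, with 3 detected. No SU-DHL-4 array overlapped with either line. The differences were -0.67 for BL-41 against SU-DHL-4 (limma adjusted p = 0.000603) and 0.66 for SU-DHL-4 against Oci-Ly-2 (adjusted p = 0.000725).

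For MAX, the shared partner, 1 of 4 probes was called. ILMN_1802457 read 5.02, 5.16, 5.28 and 5.29 in BL-41 control arrays against 5.68, 6.14, 6.21 and 6.54 in SU-DHL-4 (difference -0.95, SE 0.17, limma adjusted p = 0.000135). Its difference from Oci-Ly-2, -0.55, was not called (adjusted p = 0.0168). The other 3 MAX probes differed by -0.30 to 0.14 over the pairs of lines, and their arrays overlapped. The array annotation paired each probe with a different MAX transcript of RefSeq: ILMN_1802457 with NM_145114, ILMN_2363426 with NM_002382, ILMN_1704236 with NM_145112 and ILMN_1706546 with NM_145113.

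For MXI1, a repressor of the MXD family, ILMN_1794074 read 4.32, 4.39, 4.90 and 5.10 in BL-41 control arrays, of which 2 detected it, against 5.25, 5.33, 5.34 and 5.72 in Oci-Ly-2, all detected. The groups did not overlap, and the difference was -0.73 (SE 0.15, limma adjusted p = 0.000822). SU-DHL-4 read 4.50, 4.70, 4.90 and 5.48, overlapping with both lines, and was -0.52 against Oci-Ly-2 (adjusted p = 0.0136, not called). That difference was called without the SU-DHL-4 12 h control replicate 3 (-0.66) and without the Oci-Ly-2 12 h control replicate 3 (-0.61).

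MXD3, MLX and MGA were called in no pair of lines with all arrays in the fit. MXD3 (ILMN_1711904), a repressor found in dividing cells, was detected on 0 of 4 BL-41 control arrays and on 3 of 4 in each DLBCL line. By group means, BL-41 was at least 1.23-fold lower than SU-DHL-4 (limma adjusted p = 0.0176) and at least 1.04-fold lower than Oci-Ly-2 (adjusted p = 0.185). The lowest arrays of SU-DHL-4 and Oci-Ly-2, at 4.61 and 4.70, lay within the BL-41 range of 4.45 to 4.71. MLX ILMN_2401618 had a median of 6.96 in BL-41 control arrays and 6.57 in SU-DHL-4. MGA, a large protein that joins MAX to a Polycomb complex, had a median of 6.52 in BL-41 cells and 6.03 in SU-DHL-4 cells (ILMN_2372379). The arrays of the lines did not overlap, but neither difference, 0.47 for MLX (adjusted p = 0.0118) and 0.44 for MGA (adjusted p = 0.0123), met the call rule. Leaving out 1 array gave a call between BL-41 and SU-DHL-4 for each gene: MXD3 without the SU-DHL-4 12 h control replicate 3 (limma adjusted p = 0.000332), MLX without the SU-DHL-4 12 h control replicate 1 (0.60, adjusted p = 0.00245) and MGA without the BL-41 0 h control replicate 3 (0.54, adjusted p = 0.00564). The second MGA probe, ILMN_2372384, was detected on 0 control arrays of BL-41 and on 2 of each DLBCL line.

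**Figure D1:**
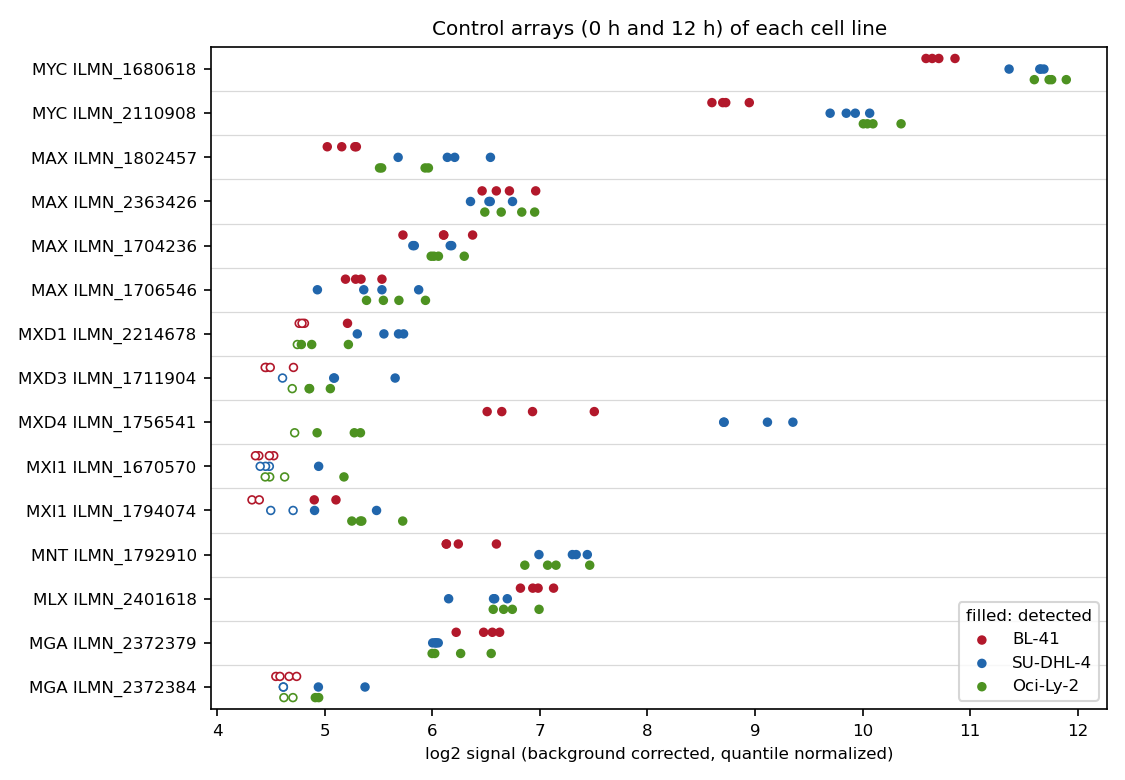
Log2 signal (x axis) of each tested member probe (rows) on the 4 control arrays of BL-41 (red), SU-DHL-4 (blue) and Oci-Ly-2 (green); each point is an array, filled where the probe was detected. Both MYC probes and MNT lie lowest in BL-41, and MXD4 separates all 3 lines.

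Named by a rule of highest correlation over the 12 group means, the genes most like MYC ILMN_1680618 were RPL32, a ribosomal protein (r = 0.99), ITM2C (0.99) and LXN (0.99). Those most like MXD4 were PPP1R16B, CD99 and UBE2A (each 0.99), and those most like MNT were DAAM1 (0.95), SPAG16 (0.95) and MKNK2 (0.94). The group means share 3 cell lines, so these values chiefly order the lines.

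After 12 h with artesunate, none of the 15 member probes met the call rule in any line. Over all probes, 1.51% were called in BL-41 cells, 0.931% in SU-DHL-4 cells and 3.03% in Oci-Ly-2 cells by the same limma test. At an unadjusted p under 0.05, 5 members passed in BL-41 cells (14.4% of all probes), 3 in SU-DHL-4 cells (15.8%) and 4 in Oci-Ly-2 cells (19.2%). Both artesunate arrays lay above both controls for 3 members in BL-41 (22.4% of all probes) and below for 4 (23.7%). The counts were 2 above (22.0%) and 6 below (22.0%) for SU-DHL-4, and 6 above (25.6%) and 4 below (24.4%) for Oci-Ly-2. The median difference of the members was -0.06 in BL-41 cells, -0.08 in SU-DHL-4 cells and 0.13 in Oci-Ly-2 cells.

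The MYC probes, which the array annotation pairs with the same transcript (NM_002467), moved by unequal amounts. ILMN_1680618 read 10.16 and 10.66 on the 12 h artesunate arrays of BL-41 against 10.59 and 10.71 on the 12 h control arrays, 11.17 and 11.61 against 11.65 and 11.66 in SU-DHL-4, and 11.73 and 12.08 against 11.60 and 11.73 in Oci-Ly-2. Artesunate arrays lay below both controls in SU-DHL-4 only, and 1 of the 2 artesunate arrays stood lower than the other in both BL-41 and SU-DHL-4. The differences were -0.24 (95% interval -0.63 to 0.14) in BL-41 cells, -0.26 (-0.65 to 0.12) in SU-DHL-4 cells and 0.24 (-0.14 to 0.63) in Oci-Ly-2 cells. Single arrays set these values: they were 0.0068 without the BL-41 artesunate replicate 1 and -0.49 without replicate 3, -0.48 without the SU-DHL-4 artesunate replicate 1 and -0.04 without replicate 3, and 0.07 without the Oci-Ly-2 artesunate replicate 1 and 0.41 without replicate 3.

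ILMN_2110908 read 7.76 and 8.34 on 12 h artesunate arrays against 8.70 and 8.73 on control arrays in BL-41. In SU-DHL-4 it read 8.72 and 9.34 with artesunate against 9.70 and 9.93 in control cells. Both artesunate arrays were below both controls in these lines, and the difference was -0.67 in BL-41 (SE 0.21, limma adjusted p = 0.0943) and -0.78 in SU-DHL-4 (SE 0.21, adjusted p = 0.0455), short of the threshold. In Oci-Ly-2, artesunate arrays at 9.71 and 10.07 overlapped with controls at 10.01 and 10.04, and the difference was -0.14 (95% interval -0.57 to 0.30). The value rested in part on single arrays: it was -0.38 in BL-41 without artesunate replicate 1 and -0.48 in SU-DHL-4 without artesunate replicate 3. Set against the mean of the 0 h and 12 h controls, a reference that does not hold time fixed, it was called in SU-DHL-4 (-0.86, adjusted p = 0.00686).

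With the cell line as the replicate, 0 of 15 members were called at 12 h, against 2.01% of all probes, and 5 passed an unadjusted p under 0.05 (22.8% of all probes). ILMN_2110908 averaged -0.53 over the 3 lines (SE 0.13, limma adjusted p = 0.0453), and ILMN_1680618 averaged -0.09 (95% interval -0.36 to 0.19). The responses of the lines were compared, and 0 of 15 were called in BL-41 against SU-DHL-4 (0.0640% of all probes), BL-41 against Oci-Ly-2 (0.120%) and SU-DHL-4 against Oci-Ly-2 (0.0200%). At an unadjusted p under 0.05, 0, 2 and 3 members passed in these comparisons, against 6.72%, 6.28% and 7.59% of all probes. For ILMN_2110908, the response of SU-DHL-4 minus that of Oci-Ly-2 was -0.65 (adjusted p = 0.630).

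At 4 h, the same MYC probe was already lower than at 0 h on every artesunate array. ILMN_2110908 read 8.18 and 8.38 in BL-41 at 4 h against 8.60 and 8.95 at 0 h, 9.25 and 9.32 against 9.85 and 10.07 in SU-DHL-4, and 9.74 and 9.98 against 10.10 and 10.36 in Oci-Ly-2. The groups did not overlap in any line, which held for 2 of 15 member probes and 3.54% of all probes in this direction; the other was MAX ILMN_2363426. The differences were -0.49 in BL-41 (limma adjusted p = 0.516), -0.67 in SU-DHL-4 (adjusted p = 0.170) and -0.37 in Oci-Ly-2 (adjusted p = 0.757), none of them called. ILMN_1680618 differed at 4 h by -0.14 in BL-41 cells, 0.01 in SU-DHL-4 cells and -0.01 in Oci-Ly-2 cells, with overlap in every line. No member was called at 4 h by the limma test, against 0% of all probes in BL-41 cells, 0.0560% in SU-DHL-4 cells and 0% in Oci-Ly-2 cells. An unadjusted p under 0.05 was reached by 2 members in BL-41 cells (8.24% of all probes), 2 in SU-DHL-4 cells (10.8%) and 3 in Oci-Ly-2 cells (7.52%). Both 4 h arrays lay above both 0 h arrays for 5 members (20.6% of all probes) and below for 2 (17.4%) in BL-41 cells. In SU-DHL-4 cells they lay above for 4 (20.7%) and below for 4 (16.1%), and in Oci-Ly-2 cells above for 1 (18.4%) and below for 7 (18.6%).

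**Figure D2:**
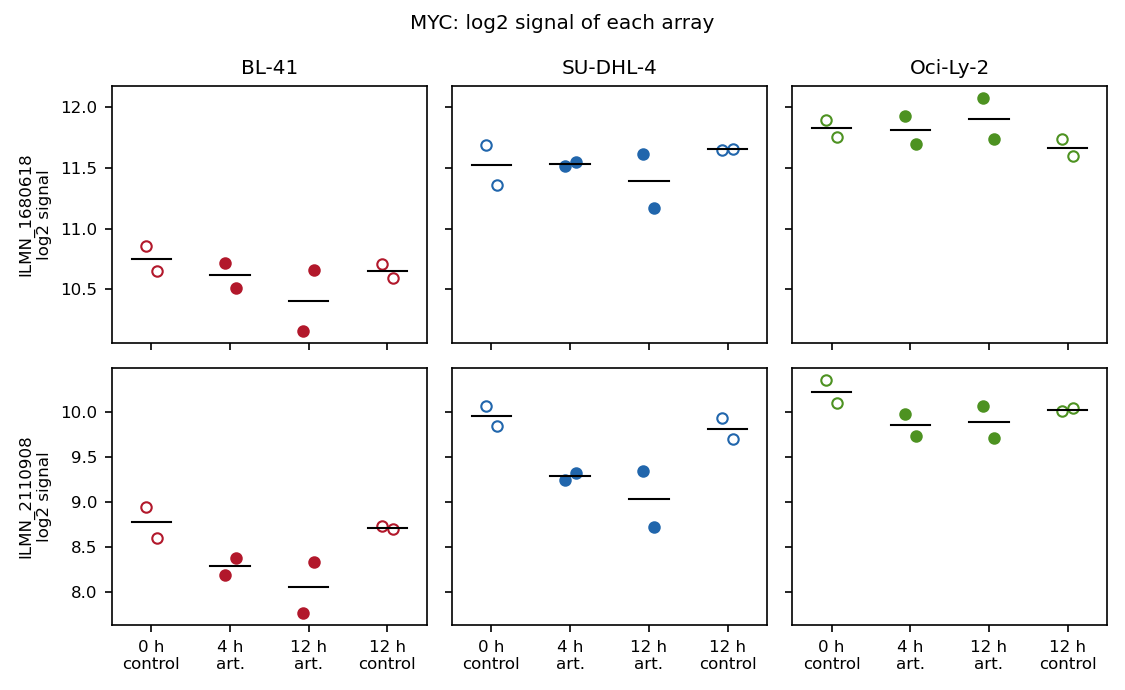
Log2 signal (y axis) of the 2 MYC probes (rows) on each array of the 3 lines (columns), by time and treatment; open points are control arrays, filled points artesunate arrays, and bars the group means. ILMN_2110908 is lower at 4 h than at 0 h on every artesunate array, whereas ILMN_1680618 overlaps at 4 h in each line.

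The 4 MAX probes did not move together. At 12 h, ILMN_1706546 read 5.81 and 5.92 with artesunate against 5.29 and 5.34 in control cells of BL-41, 6.09 and 6.39 against 5.36 and 5.87 in SU-DHL-4, and 5.57 and 5.79 against 5.39 and 5.54 in Oci-Ly-2. Artesunate arrays were above both controls in all 3 lines, as for 6.17% of all probes, and no other member. The differences of 0.55 in BL-41 cells, 0.62 in SU-DHL-4 cells and 0.21 in Oci-Ly-2 cells were not called (limma adjusted p = 0.162, 0.102 and 0.658), and the mean over the lines was 0.46 (adjusted p = 0.0390), under the size the rule asks for. In SU-DHL-4 the probe was called against the 0 h control (1.01, adjusted p = 0.00526), a comparison that does not hold time fixed. Its control means there were 5.23 at 0 h and 5.62 at 12 h.

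ILMN_2363426 went the other way. It read 6.23 and 6.46 with artesunate for 12 h against 6.59 and 6.96 in control cells of BL-41, 5.87 and 6.23 against 6.35 and 6.54 in SU-DHL-4, and 5.95 and 6.38 against 6.49 and 6.95 in Oci-Ly-2. All artesunate arrays were below their controls, as for 6.15% of all probes, by -0.43 in BL-41 cells, -0.39 in SU-DHL-4 cells and -0.55 in Oci-Ly-2 cells (limma adjusted p = 0.288, 0.321 and 0.0917), and by -0.46 over the lines (adjusted p = 0.0236). At 4 h with artesunate it read 6.11 and 6.30 against 6.46 and 6.72 at 0 h for BL-41, 6.42 and 6.51 against 6.53 and 6.75 for SU-DHL-4, and 6.23 and 6.30 against 6.64 and 6.83 for Oci-Ly-2. ILMN_1704236 had differences of -0.27 in BL-41 cells, -0.41 in SU-DHL-4 cells and -0.31 in Oci-Ly-2 cells at 12 h, and ILMN_1802457 had 0.18, -0.24 and 0.13. Over the 12 group means, ILMN_1706546 correlated with the other MAX probes at -0.14 (ILMN_1802457), -0.42 (ILMN_2363426) and -0.76 (ILMN_1704236), as a description.

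**Figure D3:**
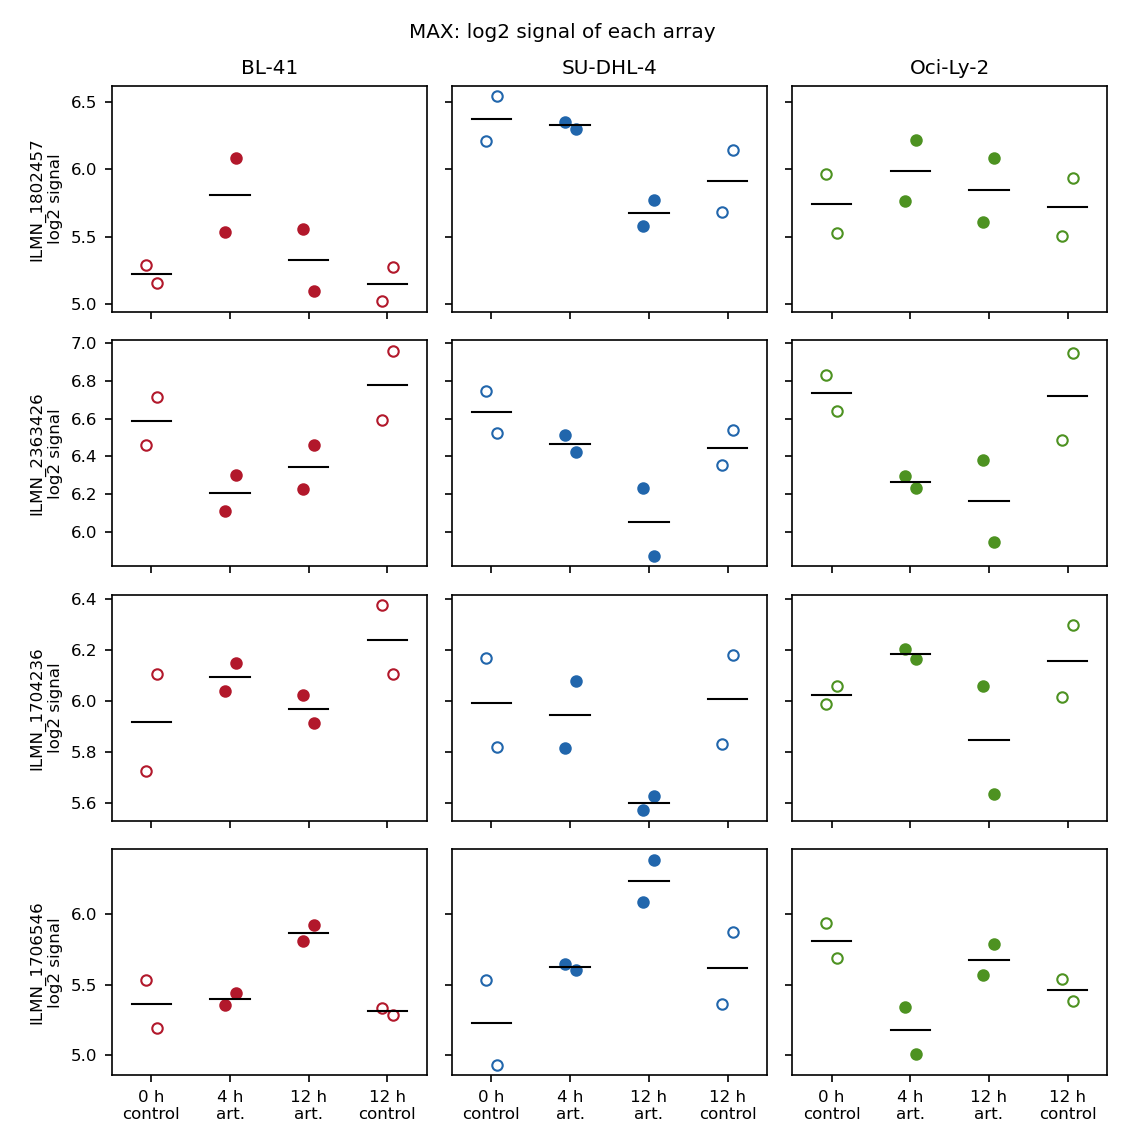
Log2 signal (y axis, a scale for each row) of the 4 MAX probes (rows) on each array of the 3 lines (columns), by time and treatment; open points are control arrays, filled points artesunate arrays, and bars the group means. At 12 h, ILMN_1706546 is above and ILMN_2363426 below the controls on every artesunate array.

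Among the repressors, MXD1 and MXD3 had their largest 12 h differences in Oci-Ly-2. MXD1 read 5.42 and 5.66 there against 4.88 and 5.22 in 12 h control cells (difference 0.49, limma adjusted p = 0.152), 5.89 and 5.90 against 5.55 and 5.73 in SU-DHL-4, and 4.78 and 5.06 against 4.79 and 5.21 in BL-41. MXD3 read 5.05 and 5.57 with artesunate against 4.70 and 4.86 in control cells of Oci-Ly-2, 5.36 and 5.87 against 4.61 and 5.65 in SU-DHL-4, and 4.72 and 5.16 against 4.45 and 4.71 in BL-41. Its groups overlapped in SU-DHL-4 alone. The difference was 0.53 in Oci-Ly-2 cells (limma adjusted p = 0.267) and 0.48 in SU-DHL-4 cells (adjusted p = 0.385), with 1 of 2 control arrays of each detecting it. In BL-41, 1 of 2 artesunate arrays and neither control detected it, and the group mean was at least 1.10-fold higher with artesunate (adjusted p = 0.598). That mean includes the undetected artesunate array, at 4.72, next to the higher control at 4.71.

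MXD4, which differed most between lines, differed at 12 h between artesunate and control by -0.17 in BL-41 cells, -0.11 in SU-DHL-4 cells and 0.23 in Oci-Ly-2 cells, and no interval excluded 0. MNT differed by 0.07, -0.27 and -0.38 at 12 h in the same order of lines. At 4 h in Oci-Ly-2, MNT read 6.29 and 6.81 with artesunate against 7.07 and 7.15 at 0 h (-0.56, limma adjusted p = 0.418).

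MXI1 ILMN_1794074 had responses of opposite sign. In BL-41, 12 h artesunate arrays read 4.36 and 4.68, neither detected, against 4.90 and 5.10 in controls, both detected, which was at least 1.20-fold lower (limma adjusted p = 0.305). In Oci-Ly-2, they read 6.16 and 6.26 against 5.34 and 5.72 (0.68, adjusted p = 0.0694), and in SU-DHL-4, 4.79 and 5.43 against 4.90 and 5.48 (-0.08). The groups overlapped in SU-DHL-4 alone. The responses of BL-41 and Oci-Ly-2 did not differ by the call rule (adjusted p = 0.228), in a test that takes the undetected BL-41 arrays at their measured values. Against the mean of both controls, which does not hold time fixed, Oci-Ly-2 was called (0.80, adjusted p = 0.00889). The control means of the probe in Oci-Ly-2 were 5.29 at 0 h and 5.53 at 12 h.

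The same MXI1 probe differed between controls without artesunate. The 12 h control arrays read 4.90 and 5.10 against 4.32 and 4.39 at 0 h for BL-41, 4.90 and 5.48 against 4.50 and 4.70 for SU-DHL-4, and 5.34 and 5.72 against 5.25 and 5.33 for Oci-Ly-2. It was the only member whose 12 h controls were above the 0 h controls in all 3 lines, against 1.16% of all probes. The 0 h arrays of BL-41 and SU-DHL-4 did not detect it, so the 12 h level stood at least 1.14-fold higher in BL-41 cells and at least 1.26-fold higher in SU-DHL-4 cells. None of the 15 members was called between 12 h and 0 h controls by the limma test, against 0.00400% of all probes in BL-41 cells, 0% in SU-DHL-4 cells and 0.00799% in Oci-Ly-2 cells. An unadjusted p under 0.05 was reached by 1 member in BL-41 cells (5.68% of all probes), 2 in SU-DHL-4 cells (9.43%) and 1 in Oci-Ly-2 cells (4.94%). The 12 h controls lay above the 0 h controls for 1 member (18.6% of all probes) and below for 0 (17.7%) in BL-41 cells. In SU-DHL-4 cells they lay above for 1 (18.2%) and below for 4 (16.2%), and in Oci-Ly-2 cells above for 3 (16.1%) and below for 5 (17.9%).

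The other MXI1 probes were near background. ILMN_1670570 was detected on 3 of 24 arrays, ILMN_1793915 on 1 and ILMN_1663497 on 0. The annotation pairs ILMN_1793915 with the same transcript as ILMN_1794074, NM_130439. MLX ILMN_1792207 was detected on 0 arrays, whereas ILMN_2401618 was detected on all 24 and differed between 12 h artesunate and control by 0.06 in BL-41 cells, 0.18 in SU-DHL-4 cells and -0.16 in Oci-Ly-2 cells. MGA ILMN_2372379 differed by -0.06, 0.10 and -0.25. MGA ILMN_2372384 was detected on both 12 h artesunate arrays of BL-41 (4.99 and 5.13) and on neither 12 h control (4.54 and 4.74), at least 1.19-fold higher (limma adjusted p = 0.331). In Oci-Ly-2, too, both artesunate arrays (4.88 and 5.00) and neither control (4.62 and 4.70) detected it, at least 1.10-fold higher (adjusted p = 0.497).

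**Figure D4:**
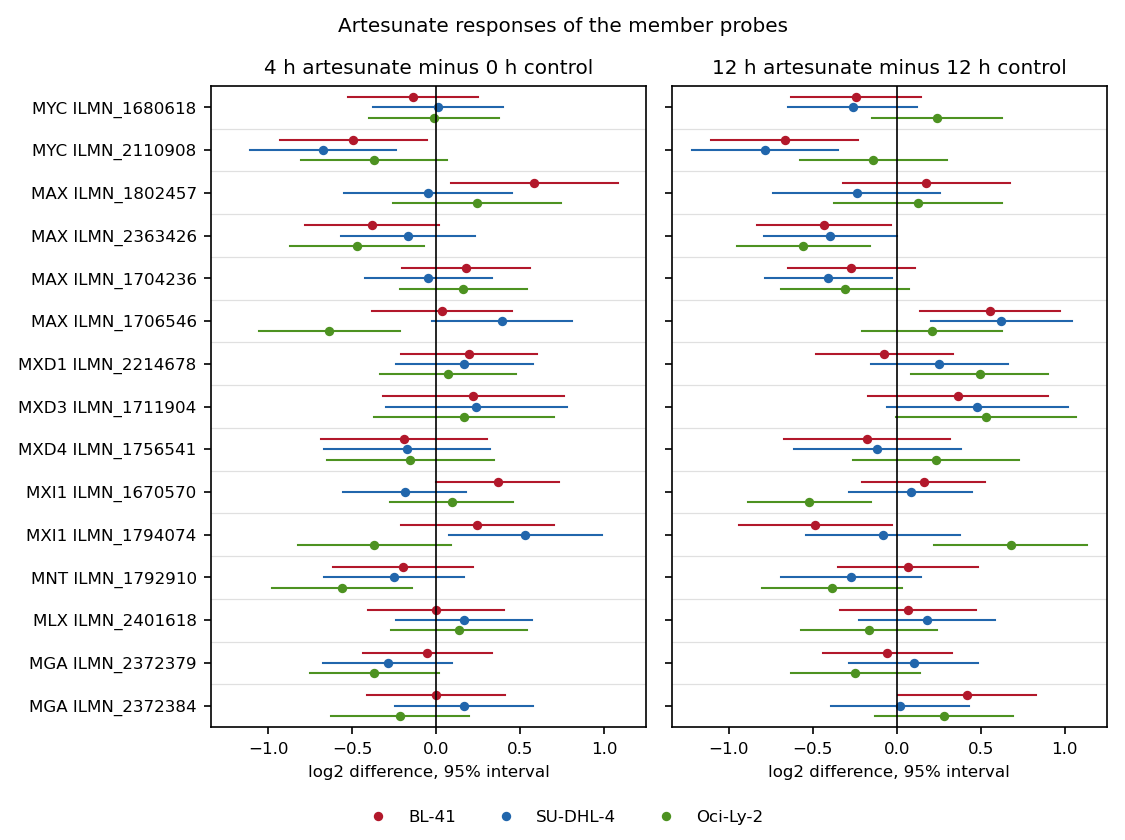
Log2 differences (x axis) of the 15 tested member probes (rows) for 4 h artesunate minus 0 h control (left) and 12 h artesunate minus 12 h control (right) in BL-41 (red), SU-DHL-4 (blue) and Oci-Ly-2 (green), with 95% intervals from the limma fit. Most intervals include 0, and no probe met the call rule.

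Genes that work with the network were counted by list, each gene by its brightest probe. At 12 h, 0 of 6 further MYC and MLX partners and E-box-binding factors, 0 of 16 cofactors of MYC and of the repressors and 0 of 17 genes of MYC protein stability were called in any line. Of 13 genes of the MGA complex, 1 rose, in Oci-Ly-2: RYBP, a Polycomb subunit, at 0.78 (limma adjusted p = 0.00363). Among all 12908 genes tested, 162 rose and 58 fell in BL-41 cells, 94 and 43 in SU-DHL-4 cells, and 276 and 187 in Oci-Ly-2 cells.

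Of 48 genes that MYC is known to activate, 1 rose and 0 fell in BL-41 cells, 0 were called in SU-DHL-4 cells, while Oci-Ly-2 cells had 1 that rose and 4 that fell. Their median was -0.07 in BL-41 cells, -0.04 in SU-DHL-4 cells and -0.11 in Oci-Ly-2 cells, against 0.01, 0.02 and 0.03 over all 12908 genes tested, of which 162 rose and 58 fell in BL-41 cells, 94 rose and 43 fell in SU-DHL-4 cells, while Oci-Ly-2 cells had 276 that rose and 187 that fell. SHMT2, a mitochondrial enzyme of serine metabolism, rose in BL-41 (0.92, limma adjusted p = 0.00645) and in Oci-Ly-2 (1.01, adjusted p = 0.00188). In Oci-Ly-2, the cell cycle phosphatase CDC25A fell by 0.88 on the log2 scale, the chaperonin HSPE1 by 0.95 and prohibitin PHB1 by 0.75. The fourth, NOP16, a ribosome biogenesis protein, fell by 0.78 and was named after its values were seen. None of the first 3 was called in the other two lines, where CDC25A stood at -0.17 in BL-41 cells and -0.64 in SU-DHL-4 cells, HSPE1 at -0.43 in BL-41 cells and -0.64 in SU-DHL-4 cells, and PHB1 at -0.43 in BL-41 cells and -0.68 in SU-DHL-4 cells.

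Of 16 genes that MYC is known to repress, 1 rose in BL-41 cells (median 0.12 over the list), 2 in SU-DHL-4 cells (median 0.19) and 2 in Oci-Ly-2 cells (median 0.32). Of all 12908 genes, 162, 94 and 276 rose in the same order of lines, with medians of 0.01, 0.02 and 0.03. The genes of the list that rose were TSC22D3, a glucocorticoid-induced leucine zipper protein, with 2.90 in BL-41 cells, 2.51 in SU-DHL-4 cells and 2.71 in Oci-Ly-2 cells, and CDKN1A, the cell cycle inhibitor p21. CDKN1A rose in SU-DHL-4 (1.97, limma adjusted p = 0.00167) and Oci-Ly-2 (2.09, adjusted p = 0.000432), and stood at 1.34 in BL-41 (adjusted p = 0.0236, not called). The part of MYC in the changes of TSC22D3 and CDKN1A was not tested. At 4 h, 0 genes of any of these lists were called, against 1 of all 12908 genes, in SU-DHL-4.

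Of 6 genes that MLX and MondoA are known to regulate, none was called within a line. TXNIP, an inhibitor of glucose uptake and their best known target, stood at 1.05 in BL-41 cells, 0.97 in SU-DHL-4 cells and 0.71 in Oci-Ly-2 cells (limma adjusted p = 0.151, 0.187 and 0.312), and averaged 0.91 with the cell line as the replicate (adjusted p = 0.00270, called). Its means at 0 h, in 12 h controls and with 12 h artesunate were 9.25, 8.60 and 9.66 in BL-41 cells. They were 9.54, 8.67 and 9.64 in SU-DHL-4 cells and 10.80, 10.39 and 11.10 in Oci-Ly-2 cells. Its controls thus changed from 0 h to 12 h by -0.65, -0.87 and -0.41, not called, and the 12 h differences rest in part on lower controls. In the limma fit with the cell line as the replicate, 2 of the 6 were called higher than in 12 h controls, against 174 higher and 90 lower of all 12908 genes. The one besides TXNIP was ARRDC3 (0.69, adjusted p = 0.00639), an arrestin family member named after its values were seen. ARRDC4, a second target, was not detected in 12 h control cells. Its 12 h artesunate means stayed as low, at 4.45 in BL-41 cells, 4.51 in SU-DHL-4 cells and 4.38 in Oci-Ly-2 cells (differences -0.13, 0.05 and -0.003). The median 12 h difference of the 6 genes was 0.13 in BL-41 cells, -0.09 in SU-DHL-4 cells and 0.33 in Oci-Ly-2 cells. With the cell line as the replicate it was 0.01. At baseline, 3 of the 6 were lower in BL-41 cells and 3 in SU-DHL-4 cells than in Oci-Ly-2 cells, against 1678 and 1649 of all 12908 genes, among them TXNIP at -1.67 for BL-41 and -1.49 for SU-DHL-4. Of 6 housekeeping genes tested, 0 were called at 12 h. At baseline, 2 were called higher and 1 lower in BL-41 than in SU-DHL-4 (1548 and 1633 of all 12908 genes). Against Oci-Ly-2, BL-41 had 2 higher and 0 lower (1512 and 1678), and SU-DHL-4 had 0 higher and 1 lower (1541 and 1649). B2M, named after its values were seen, was higher in BL-41 by 1.26 against SU-DHL-4 and by 1.27 against Oci-Ly-2.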

How the data were processed

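Expression was measured on 24 arrays in 12 groups named by the sample labels. The authors deposited raw probe intensities beside a detection p-value of each, and a second table of processed intensities. On the log2 scale, these matched quantile normalization of the raw intensities to within 0.0207. How the authors normalized is not stated in what was read here, and limma is the only tool the submitters' processing notes name.

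From the deposited intensities, neqc of limma 3.58.1 (R 4.3.3) removed background (offset 16) and applied quantile normalization, and values were used as log2. Probes with a detection p-value under 0.05 on at least 2 arrays were tested in 1 limma model of the 12 groups (12 residual and 7.42 prior degrees of freedom), and a second model on the 6 group means at 12 h took the cell line as the replicate. Calls needed a log2 difference beyond 0.5 together with an adjusted p (Benjamini-Hochberg) below 0.01, which are the thresholds of the study's methods. Lower bounds set the detected group's mean against the lowest signal among detected probes of each array, or the probe's own where higher. That mean includes any undetected array of the group, and the bounds make no allowance for spread. The number of arrays limits the precision.

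The members were named by probe annotation, and lists of partners, cofactors, the MGA complex, MYC stability, activated and repressed targets, MLX and MondoA targets and housekeeping genes were written from general knowledge. From each list, up to 4 genes called at 12 h with the largest mean change were named, and TXNIP and ARRDC4 in any case. Members and lists were chosen with earlier results of these data known. The model was run on simulated data with independent noise drawn from its own fitted spread. Changes were added to the 12 h comparison of BL-41 alone. That run cannot test whether the assumptions of the model hold for these arrays. The alternatives tried were another threshold, the processed values, no background correction, median scaling (over probes detected on all arrays, chosen after seeing the data), other filters, array weights, a replicate block, other controls, each line alone and leaving out each array. Gene coordinates are given for promoter sequence alone, since no source read here names the array's build.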

Additional observations from a re-analysis of the deposited data

Results flagged for a closer look

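Each tested probe was screened for a control array far from the other 3 of its line, and 3 of 45 sets of 4 arrays held one; chance gives about 1 in 20. MYC ILMN_1680618 read 11.36 on the 0 h control replicate 3 of SU-DHL-4, and the other 3 control arrays read 11.65 to 11.69. MXD1 read 5.21 on the 12 h control replicate 1 of BL-41, with the others at 4.76 to 4.81. MXI1 ILMN_1670570 read 4.94 on the 0 h control replicate 3 of SU-DHL-4, with the others at 4.40 to 4.48. MXI1 ILMN_1793915, which was not tested, was detected on 1 array, the 12 h artesunate replicate 1 of Oci-Ly-2, at 4.97, whereas its control arrays in the 3 lines read 4.27 to 4.58 and none detected it. None of these values was given an explanation or a test.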

How the results depend on the processing

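The baseline calls of both MYC probes, MXD4 (3 pairs) and MNT (BL-41 against SU-DHL-4) remained under all 18 alternatives, and no called value changed sign. With the deposited processed values or without background correction, 3 members were called in BL-41 against Oci-Ly-2 and 1 when SU-DHL-4 was set against Oci-Ly-2, where 12 h controls alone also left 1; without background correction, MAX ILMN_1802457 was -0.39, MXD1 -0.23 and 0.22, MXI1 ILMN_1794074 -0.26 and MNT -0.50 where they lost their calls. With 12 h controls alone, MAX ILMN_1802457 was -0.76, MXD1 -0.64 and 0.59 and MXI1 -0.53, and with 0 h controls alone MXD1 in BL-41 against SU-DHL-4 was -0.71, none of them called; the cause was not tested.

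At 12 h, SU-DHL-4 had 0 calls in the fit reported, 1 at an adjusted p under 0.05 (MYC ILMN_2110908), 1 against the 0 h control (MAX ILMN_1706546) and 2 against the mean of both controls (both probes). Oci-Ly-2 had 1 against that mean, and the mean over lines had 1 at an adjusted p under 0.05. The 0 h control and the mean of both controls do not hold time fixed. Leaving out 1 array gave 6 to 7 calls in BL-41 against SU-DHL-4, 5 to 5 in BL-41 against Oci-Ly-2, 2 to 3 in SU-DHL-4 against Oci-Ly-2 and 0 in every response and time comparison.

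The labels mark the arrays of every group d1 and d3 without saying what these stand for, and they are named replicates 1 and 3 here. Arrays of a number did not deviate together in every pair of groups within a line, so the number was not taken as a pairing. Correlations were -0.18 to 0.21 in BL-41 (over 0.1 for 3 of 6 pairs), where every negative value involved the 12 h artesunate arrays. They were all positive in SU-DHL-4 (0.06 to 0.28, over 0.1 for 4 of 6) and Oci-Ly-2 (0.07 to 0.16, over 0.1 for 2 of 6). With a replicate block, 1 member was called at 12 h in Oci-Ly-2, MXI1 ILMN_1794074 (0.68, limma adjusted p = 0.00944), in place of 0, and 2 baseline calls were gained: MXD3 in BL-41 against SU-DHL-4 (adjusted p = 0.00821) and MXI1 ILMN_1794074 in SU-DHL-4 against Oci-Ly-2 (-0.52, adjusted p = 0.000894). Median scaling gained MXD3 in BL-41 against SU-DHL-4 (adjusted p = 0.000557) and MAX ILMN_1802457 in BL-41 against Oci-Ly-2 (-0.68). With 2 arrays a group, 95% intervals of responses spanned 0.37 to 0.54 to either side. The intervals are not adjusted for the number of probes, and the call rule is stricter. MYC ILMN_2110908, at -0.78 in SU-DHL-4 at 12 h (limma adjusted p = 0.0455), was not called. Changes smaller than these widths, and some larger ones, may thus have gone uncalled.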
